A study of Mus musculus with 12 samples.

Results

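In mouse hippocampal HT22 cells exposed to mesaconitine (MA), 10 genes of the matrix metalloproteinase system were followed, 7 metalloproteinases (Mmp2, Mmp3, Mmp9, Mmp10, Mmp13, Mmp14 and Mmp19) and 3 tissue inhibitors (Timp1, Timp2 and Timp3). They were picked by gene name from an expression table of 25239 genes and a table of m6A peaks, and all 10 were in the expression table. MA is an alkaloid made by plants of the genus Aconitum. HT22 is an immortalised neuronal line, and the cells were wild type. The treated group received 800 µM MA for 72 h, a dose that lowered viability, and the control group received 0 µM for the same time. MA was dissolved in dimethyl sulfoxide, and whether the control cells received it is not given in the sources used here. Each group had 3 input libraries, which measure mRNA, and 3 libraries of RNA precipitated with an antibody to N6-methyladenosine (m6A), 12 libraries in all.

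Matrix metalloproteinases are zinc-dependent proteases that cut collagens, other matrix proteins and many cell surface proteins, and most are made as latent precursors. TIMPs bind their active site and block it. MMP14, a membrane-anchored member also called MT1-MMP, activates latent MMP2 on the cell surface with TIMP2 as the adaptor, and in the nervous system the balance of proteases and inhibitors is known for its part in matrix turnover, barrier integrity and plasticity.

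Mmp14 and Mmp2 were higher after MA, and Timp1 was lower. Mmp14 rose 1.63-fold, Mmp2 1.14-fold, and Timp1 fell to 0.723 of its control level. Timp2, Timp3, Mmp19 and Mmp9 did not pass the test, and Mmp3, Mmp10 and Mmp13 were listed at 0. Of the 10 genes, 7 had a test and 3 had an adjusted p under 0.05 in the DESeq2 Wald test of the authors' deposited table, 2 higher and 1 lower. Over all 13427 genes with an adjusted p, 15.3% were called, 7.07% higher and 8.27% lower. By a p under 0.05 and a change over 1.2-fold, 2 of the 10 genes were called (Mmp14 and Timp1), against 13.9% of 16167 genes with a p. The median log2 change was 0.01 over the 4 metalloproteinases with a value and -0.13 over the 3 TIMPs, and -0.01 over all genes with a fold change.

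The direction of every expression change rests on a reading of the expression table, whose fold changes do not name the group in the numerator. Their sign was reversed, so that a positive value is higher after MA. The study's own descriptions differ on this point. Lysosome and autophagy genes are described as higher after MA, which needs the reversed sign. The paper also reports several autophagy genes as higher by qRT-PCR, and autophagy and lysosome sets as higher in its proteomics, which measured protein and not mRNA. It counts more genes lower than higher. With the reversed sign, 1100 genes were higher and 1143 lower by a p under 0.05 and a change over 1.2-fold. In contrast, its list of m6A regulators prints the sign as deposited and reads it as MA over control. The conflict was not resolved, so each direction of expression is conditional on the reversal. The reads of the m6A table bear on it in part. Where the gene's expression p was under 0.0001 (166 peaks), the reversed change had a Spearman's rho of 0.59 with the MA to control ratio of the pooled precipitated reads, but of 0.03 with that of the pooled input reads. Over all 2470 peaks with both values, the rho was 0.28 and 0.01. These are descriptions over peaks of the same libraries. The expression values name no library and were taken to come from the input libraries. They did not follow the pooled input reads in either direction, so reading them as mRNA rests on that assumption. With the sign as deposited, every direction of expression given here would be the opposite. The m6A changes were used with their deposited sign, and their reads are labelled control or treated.

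The table holds 1 base mean per gene, which is the mean of the normalized counts over the libraries of both groups, and no value of a single library. A level in each group was therefore calculated from the base mean and the fold change, on the assumption of equal numbers of libraries in both groups. These levels have no replicate spread of their own, and the standard error (SE) of the log2 change carries the error. In bulk RNA, a change in the share of cells that express a gene and a change in RNA per cell cannot be told apart.

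Mmp14 (ENSMUSG00000000957.11, chr14:54431612-54445364, + strand, mm10) had a base mean of 19267, with a calculated level of 14676 in control and 23858 in MA cells. Its log2 change was 0.70 (SE 0.13, 95% interval 0.45 to 0.95), with an adjusted p of 1.87e-06 in DESeq2. Mmp14 was the only one of the 10 genes that changed by more than 1.5-fold with an adjusted p under 0.05. Its SE was larger than that of 94.8% of the 386 genes with a base mean within 1.5-fold of its own, whose median SE was 0.068.

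Mmp2 (ENSMUSG00000031740.8, chr8:92827291-92853420, + strand) encodes gelatinase A, which cuts denatured collagen and type IV collagen. Its base mean was 12990, with calculated levels of 12134 in control and 13845 in MA cells. The log2 change was 0.19 (SE 0.048, interval 0.10 to 0.28), with an adjusted p of 0.00102. The change was small, and only 4.23% of the 639 genes with a like base mean had a smaller SE. The log2 change of Mmp2 was lower than that of Mmp14 by 0.51 (interval of the difference -0.78 to -0.24).

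Mmp19 (ENSMUSG00000025355.7, chr10:128790910-128800824, + strand), a secreted protease of basement membrane proteins, had a base mean of 234.5 and calculated levels of 248 and 221. The log2 change was -0.16 (SE 0.28, interval -0.71 to 0.38, adjusted p = 0.807). Mmp9 (ENSMUSG00000017737.2, chr2:164940780-164955850, + strand) encodes gelatinase B, which is induced in many kinds of brain injury. Its base mean was 7.65, with calculated levels of 10.4 and 4.91. The log2 change was -1.08 with an SE of 1.30 (interval -3.64 to 1.47, adjusted p = 0.704). The interval reached from a fall of several fold to a rise of more than 2-fold, so a change of either direction was not detectable at this level.

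Mmp3 (stromelysin-1), Mmp10 (stromelysin-2) and Mmp13 (a collagenase) were listed at 0 and had no test. They lie in the metalloproteinase cluster of chromosome 9, at chr9:7445822-7455975, chr9:7502352-7510240 and chr9:7272514-7283331, all on the + strand. All 10 genes of that cluster in the list (Mmp7, Mmp20, Mmp27, Mmp8, Mmp10, Mmp1a, Mmp1b, Mmp3, Mmp12 and Mmp13) were listed at 0. They were among 9061 genes of the table with that value, and the lowest value above 0 was 0.150. The paralogs share some sequence: 8.39% of the 50-base stretches of the Mmp3 transcript and 8.37% of those of Mmp10 occurred in another gene, against 0.878% for Mmp14, 0.150% for Timp3 and 0 for the other members.

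Among the inhibitors, Timp1 (ENSMUSG00000001131.11, chrX:20870166-20874735, + strand), a secreted and inducible TIMP, had a base mean of 682 and calculated levels of 792 in control and 572 in MA cells. Its log2 change was -0.47 (SE 0.14, interval -0.74 to -0.19, adjusted p = 0.00837). Timp1 lies inside Syn1, which is on the opposite strand, and Syn1 itself had a base mean of 710 and a log2 change of -0.07 (SE 0.13, adjusted p = 0.841). Only whole gene spans were compared, not exons, and whether strand was used in counting is not given in the sources used here. Whether any reads of Timp1 and Syn1 were confused was therefore not tested.

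Timp2 (ENSMUSG00000017466.9, chr11:118301069-118355740, - strand), the adaptor of MMP2 activation, had the highest base mean of the 10 genes at 21799, with calculated levels of 22807 and 20791. The log2 change was -0.13 (SE 0.074, interval -0.28 to 0.01, adjusted p = 0.251). Cep295nl overlaps it on the same strand and had a base mean of 197, with a log2 change of 0.35 (SE 0.31, adjusted p = 0.566). Timp3 (ENSMUSG00000020044.13, chr10:86300372-86349506, + strand) is bound to the matrix and also blocks several ADAM and ADAMTS proteases. Its base mean was 5593, with calculated levels of 5392 and 5794, and the log2 change was 0.10 (SE 0.084, interval -0.06 to 0.27, adjusted p = 0.514). Timp3 lies inside Syn3 on the opposite strand, whose base mean was 4.65. Mmp19 overlaps Tmem198b on the opposite strand (base mean 503, log2 change -0.01, SE 0.20, adjusted p = 0.986), and the antisense gene Gm47093 spans it.

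**Figure D1:**
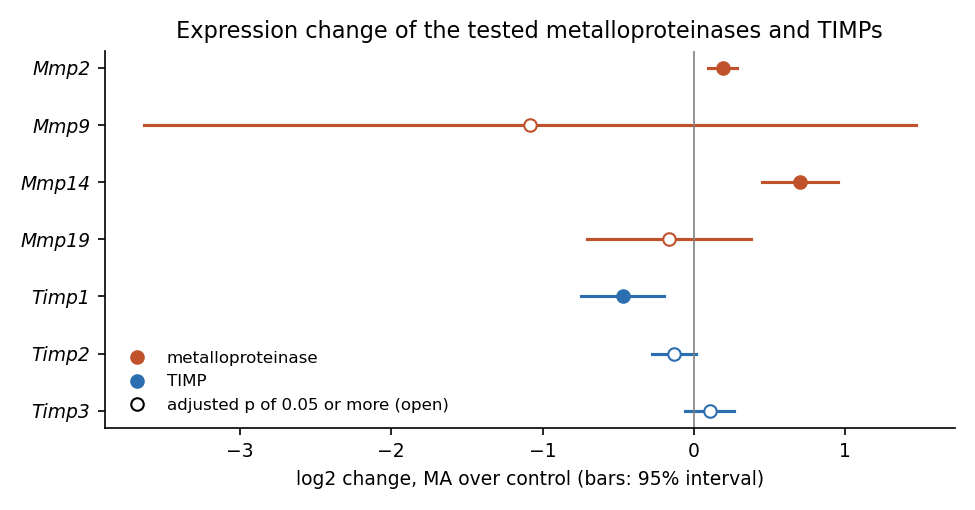
Log2 change of the 7 tested genes, MA over control (x axis), with 95% intervals as bars. Filled points have an adjusted p under 0.05. Mmp14 (0.70) and Mmp2 (0.19) lie above 0 and Timp1 (-0.47) below, and the interval of Mmp9 runs from -3.64 to 1.47.

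The levels of the 10 genes spread over a wide range. Per kilobase of transcript, the base mean was 5950 for Mmp14, 5877 for Timp2, 4220 for Mmp2, 1184 for Timp3, 773 for Timp1, 68.9 for Mmp19 and 2.41 for Mmp9. Over the 14020 genes with a length and a base mean above 0, the median was 256 per kilobase. Mmp14 and Timp2 were at percentile 97.5 of these genes and Mmp2 at 96.2. Timp3 was at percentile 82.9, Timp1 at 74.3, Mmp19 at 32.6 and Mmp9 at 15.2. The mRNAs of the membrane-anchored activator, its adaptor inhibitor and its substrate protease were the top 3 of the 10 genes. No spread between libraries is given for a level, so the order of neighbours was not tested. The summed calculated level was 27069 in control and 37929 in MA cells for the metalloproteinases, and 28992 and 27157 for the TIMPs. Most of the metalloproteinase difference came from Mmp14 alone (14676 and 23858), and the calculated levels of Mmp9 and Mmp19 were lower in MA cells. Together the 10 genes made up 0.152% of the summed base mean of all genes.

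**Figure D2:**
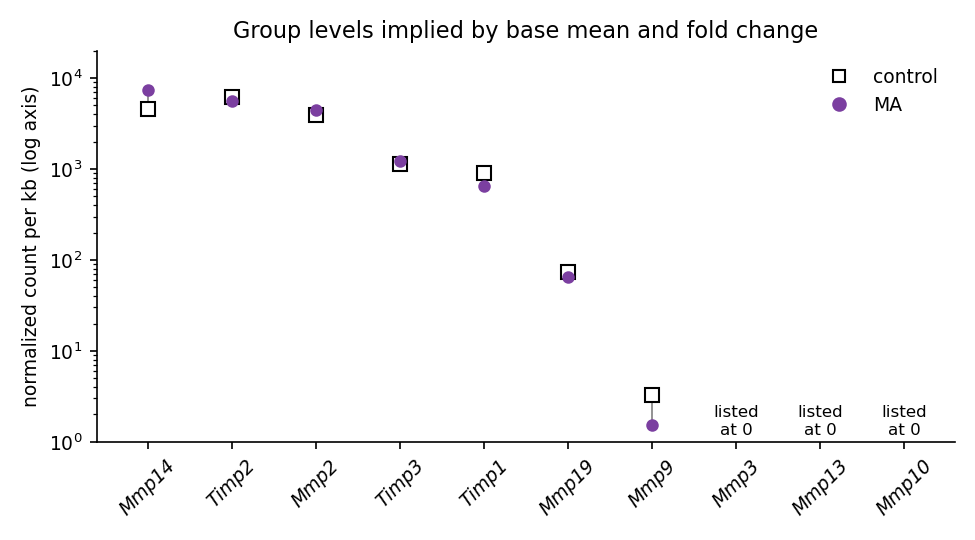
Calculated group levels per kilobase of transcript (y axis, normalized count on a log axis) for each gene, with open squares for control and filled circles for MA. Mmp14, Timp2 and Mmp2 are highest, Mmp9 is near the floor, and the 3 genes listed at 0 have no point.

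**Figure D3:**
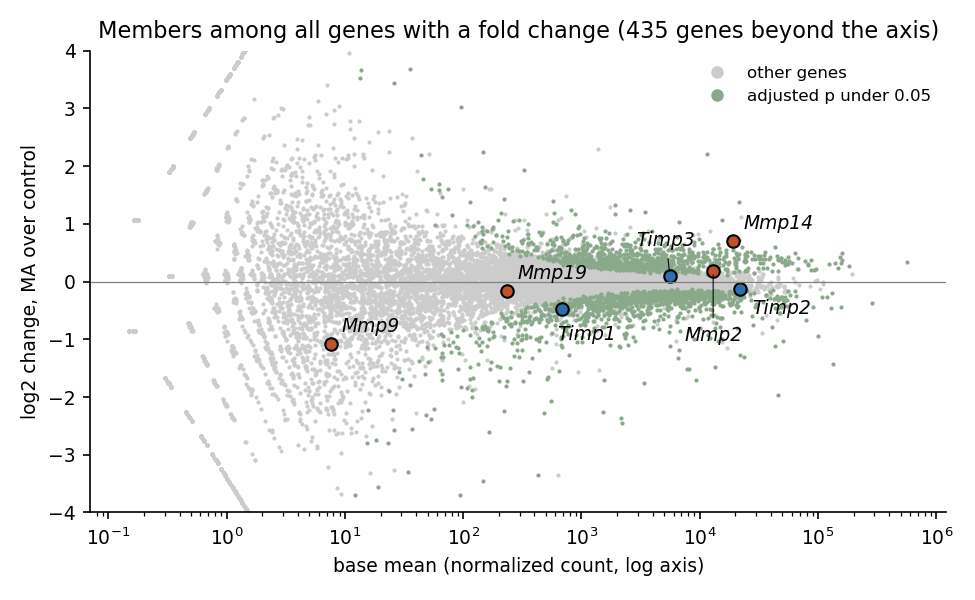
Log2 change (y axis, MA over control) against base mean (x axis, log axis) for all genes with a fold change, with genes of adjusted p under 0.05 in green and the 7 genes with a test marked. 435 genes lie beyond the y axis. Mmp14 stands above most genes of its base mean, and Mmp9 lies where the spread of all genes is wide.

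Promoter sequences from RefSeq (GRCm38.p6) are shown for the 3 genes listed at 0, for the protease that rose most and for the inhibitor that fell, so that the promoters of undetected and detected members can be read side by side. The table held a promoter for 7 of the 10 genes, all but Mmp2, Mmp9 and Mmp19. The 120 bases before the RefSeq start were searched on both strands for a few short motifs. That start can differ from the gene positions given above, which are from GENCODE. By those positions the Timp2 bases lie inside the gene, and the Timp3 bases run past the gene's start. A site for AP-1, the dimer of Fos and Jun proteins, was searched as TGANTCA. The TATA box, which places the start of many inducible genes, was searched as TATAAA. The GC box, a site of Sp family factors, was searched as GGGCGG. Capitals in the sequences mark the matches.
Mmp3, chr9:7445702-7445821, + strand: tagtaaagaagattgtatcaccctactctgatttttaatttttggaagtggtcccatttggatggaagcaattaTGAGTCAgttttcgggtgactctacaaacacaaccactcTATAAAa
Mmp10, chr9:7502222-7502341, + strand: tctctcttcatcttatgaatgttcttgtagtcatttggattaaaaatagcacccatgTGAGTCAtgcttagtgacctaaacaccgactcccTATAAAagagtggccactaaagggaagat
Mmp13, chr9:7272394-7272513, + strand: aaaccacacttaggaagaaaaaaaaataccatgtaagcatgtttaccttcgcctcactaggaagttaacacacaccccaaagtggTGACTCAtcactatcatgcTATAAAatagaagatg
Mmp14, chr14:54431478-54431597, + strand: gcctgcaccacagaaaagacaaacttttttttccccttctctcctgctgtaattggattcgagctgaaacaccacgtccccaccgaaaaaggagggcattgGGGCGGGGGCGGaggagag
Timp1, chrX:20870046-20870165, + strand: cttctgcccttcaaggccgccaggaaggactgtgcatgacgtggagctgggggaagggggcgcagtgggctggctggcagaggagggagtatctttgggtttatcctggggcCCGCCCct
Mmp3, Mmp10 and Mmp13 each held 1 AP-1 match and 1 TATA match, and their GC content was 35.8%, 39.2% and 37.5%. Mmp14 held 2 GC boxes side by side at a GC content of 54.2%. Timp1, Timp2 and Timp3 held 1 GC box each, with GC contents of 65.0%, 75% and 69.2%, and none of these 4 genes held an AP-1 or TATA match. Over all 32851 promoters the same 120 bases held the AP-1 letters in 3.41%, the TATA letters in 6.34% and the GC box letters in 26.5%, with a median GC content of 54.2%. A match describes letters only and says nothing of binding in these cells.

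The change of each protease was set against that of each inhibitor. A ratio of 2 genes does not depend on how libraries were scaled. The errors of the genes were treated as independent, and the intervals were not widened for the 21 pairs compared. In 10 pairs the 95% interval excluded 0. All 5 of the protease to inhibitor pairs among them, of 12 such pairs, were above 0. Each of these pairs holds Mmp14 or Mmp2, so they repeat the single-gene changes and are not independent of each other. The Mmp14 to Timp1 ratio rose by 1.17 on the log2 scale (SE 0.19, interval 0.80 to 1.54), which is 2.25-fold. The ratio of Mmp14 to Timp2 rose by 0.83 (SE 0.15, interval 0.54 to 1.13) and that to Timp3 by 0.60 (SE 0.15, interval 0.30 to 0.90). The Mmp2 to Timp1 ratio rose by 0.66 (SE 0.15, interval 0.37 to 0.95) and the Mmp2 to Timp2 ratio by 0.32 (SE 0.088, interval 0.15 to 0.50). The Mmp2 to Timp3 ratio had an interval from -0.10 to 0.28. All Mmp9 and Mmp19 pairs with a TIMP spanned 0. Among the inhibitors, Timp1 changed by -0.34 relative to Timp2 (interval -0.65 to -0.03) and by -0.57 relative to Timp3 (interval -0.89 to -0.25). These are mRNA ratios, and no protein or activity was measured.

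**Figure D4:**
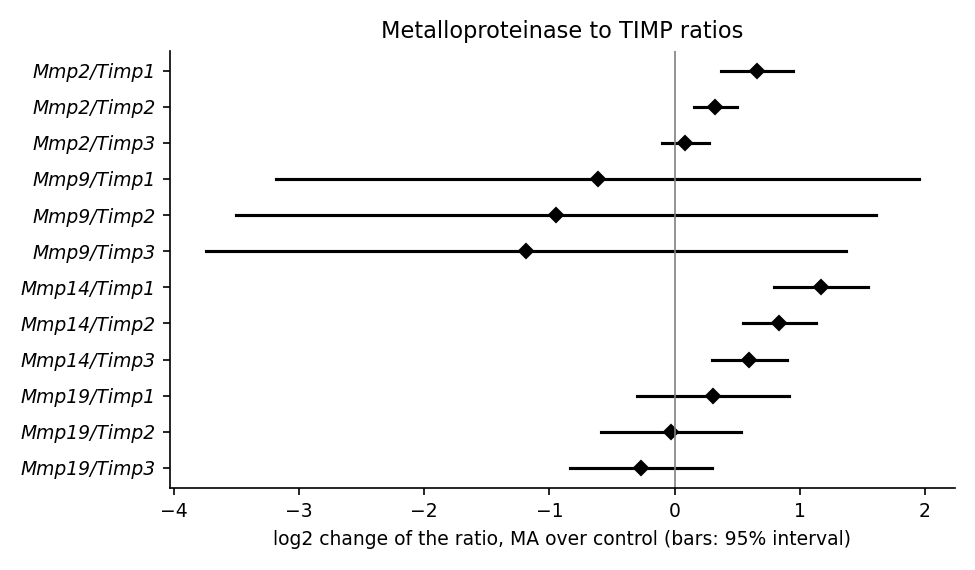
Log2 change of the ratio of each protease to each inhibitor (x axis, MA over control), with 95% intervals as bars. The 3 Mmp14 ratios and the ratios of Mmp2 to Timp1 and Timp2 lie above 0, and the Mmp9 ratios have wide intervals.

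The other genes of the family were mostly listed at 0. Of 17 further MMP and TIMP genes, 11 were listed at 0 and 4 had an adjusted p. Of these Mmp11 (stromelysin-3) rose, with a log2 change of 0.27 (SE 0.091, adjusted p = 0.025, base mean 1139). Of 9 activators and inducers of latent MMPs, 3 of the 6 with an adjusted p fell and none rose. For this and the next lists, the shares over all genes were 7.07% called higher and 8.27% lower. Plau, the urokinase that turns plasminogen into plasmin, changed by -1.02 (SE 0.21, adjusted p = 2.42e-05). Bsg (basigin), which induces MMPs in neighbouring cells, changed by -0.31 (SE 0.045, adjusted p = 2.63e-10), and Plat, the tissue plasminogen activator, by -0.28 (SE 0.083, adjusted p = 0.00631). Furin, which activates latent MMP14, was at 0.06 (SE 0.093, adjusted p = 0.773).

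Of 12 other inhibitors and clearance genes, 6 had an adjusted p, of which 1 rose and 3 fell. Thbs1 (thrombospondin 1) changed by -1.96 (SE 0.12, adjusted p = 1.31e-56), while Thbs2, whose protein helps clear MMP2, changed by 0.33 (SE 0.057, adjusted p = 2.47e-07). Reck, a membrane-anchored MMP inhibitor, changed by -0.39 (SE 0.13, adjusted p = 0.0189) and Lrp1, the receptor that takes up protease and TIMP complexes, by -0.15 (SE 0.045, adjusted p = 0.00656).

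Of 14 AP-1, ETS, RUNX and early growth response factors, which include known regulators of MMP promoters, 2 rose and 4 fell. Ets2 changed by 0.63 (SE 0.075, adjusted p = 3.72e-15) and Etv4 by 0.66 (adjusted p = 0.0270). Egr1 changed by -1.51 (SE 0.17, adjusted p = 2.38e-17), Fos by -0.94 (SE 0.29, adjusted p = 0.0122), Junb by -0.61 (SE 0.14, adjusted p = 0.000271) and Ets1 by -0.25 (adjusted p = 0.000251). Of 8 ADAM and ADAMTS genes, several of whose products TIMP3 blocks, 7 had an adjusted p. Adamts5, Adamts1, Adamts4 and Adamts2 fell, with log2 changes of -1.70, -1.33, -1.02 and -0.56 (adjusted p between 1.55e-105 and 4.74e-16), and Adam10, Adam17 and Adam19 were not called. The median change of these 7 was -0.56, against -0.01 over all genes. The list does not cover these families, so its median does not describe them. Outside it, Adamts7 changed by 0.69 (adjusted p = 7.88e-08), Adamts6 by -0.48 (adjusted p = 0.0105) and Adamts16 by -6.60 (adjusted p = 0.000417, base mean 9.22). Adam9, Adam15, Adamts10 and Adamts12 were not called.

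**Figure D5:**
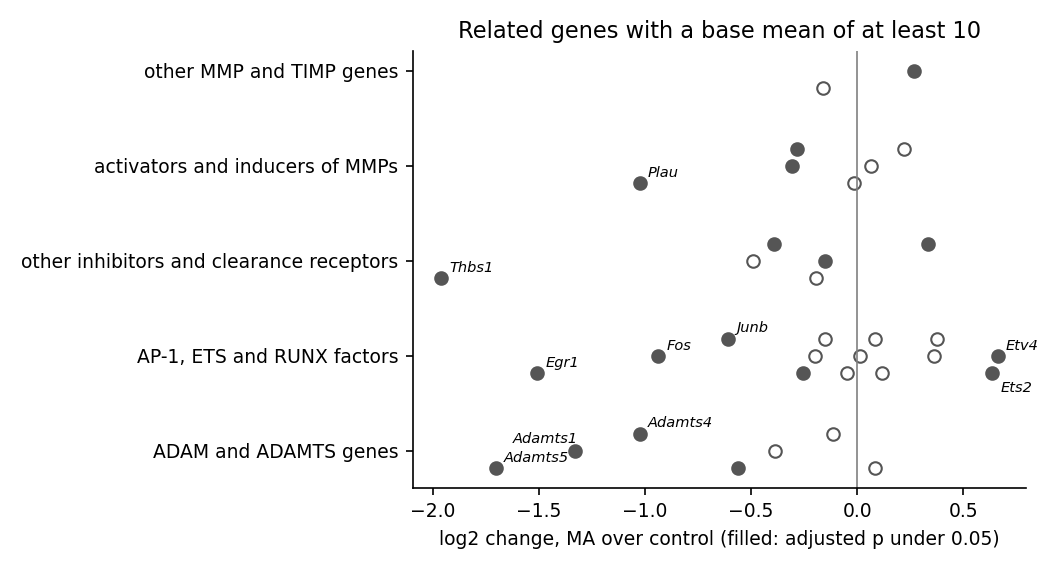
Log2 change (x axis, MA over control) of the related genes with a base mean of at least 10, by list (y axis), with filled points for an adjusted p under 0.05. Thbs1 and Adamts5 are the lowest and Etv4 and Ets2 the highest of the filled points.

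The labelled cell type was checked against markers. Of 10 neuronal markers, 6 were listed at 0 (Map2, Snap25, Nefl, Nefm, Dcx and Stmn2), and the highest, Tubb3, had a base mean of 473. All 11 fibroblast and mesenchymal markers were above 0, at base means of 1.35 (Lum) to 286199. Of the 10 with an adjusted p, 8 fell, against 8.27% called lower over all genes. Their summed calculated level was 956526 in control and 646067 in MA cells, with a median log2 change of -0.36. The summed level of neuronal markers went from 545 to 414 and of 5 astrocyte markers (Aqp4 at 0) from 1448 to 1074. That of 6 microglia and macrophage markers (P2ry12 at 0) went from 463 to 282. Each of these sums came mostly from a single gene, Tubb3, Slc1a3 (base mean 1140) and Tmem119 (base mean 303). Gfap (0.65), Cx3cr1 (2.33), Itgam (1.80) and Ptprc (1.34) had base means near 0, so the sums do not describe a cell type. The part of these marker changes in the results above was not tested.

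None of the 10 genes had an m6A peak in the table used here. That table lists far fewer peaks and genes than the study describes, so the counts and shares below hold for the listed peaks only. It held 2643 peaks on 2171 gene names, called by exomePeak2 with read counts given as sums per group, and 0 lay on a member by name or by position. The share of genes with a peak was 14.4% of 14870 genes with a base mean of at least 1, a level at which 7 members stood, and 8.14% (61 of 749) at a base mean of at least 10000, where Mmp14, Mmp2 and Timp2 stood. Absence from this partial list does not show that the mRNAs lack m6A. The nearest peaks lay 4.85 kb from Mmp19 (on Dnajc14), 8.72 kb from Timp3 (on Syn3), 32.0 kb from Timp2 (on Usp36), 38.4 kb from Mmp9 (on Zfp335), 55.7 kb from Timp1 (on Cfp) and 61.6 kb from Mmp14 (on Slc7a7). On the 92 genes of the other lists there were 10 peaks on 9 genes, of which 3 were called higher and 0 lower after MA by exomePeak2. Over all peaks tested, 17.5% were called in either direction, and the share of each direction was not calculated. The paper reports more genes with increased than with weakened m6A. Of the 3 called peaks, 2 were on Fosl2, an AP-1 subunit, whose own mRNA change of 0.11 was not called (adjusted p = 0.484). The stronger Fosl2 peak changed by 0.71 on the log2 scale (adjusted p = 0.00289). Its pooled reads were 623 input and 452 precipitated in control cells, and 394 and 702 in MA cells. The third was on Pcsk7, a proprotein convertase, and changed by 0.92 (adjusted p = 0.00301), with 309 and 208 reads in control cells and 167 and 329 in MA cells. These read sums are printed as listed. Their plain ratios are larger than the changes estimated by exomePeak2, which uses size factors for sequencing depth.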

How the data were processed

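Cells were profiled by m6A immunoprecipitation sequencing, with 3 input and 3 precipitated libraries for each of MA and control. The authors used fastp for trimming, HISAT2 for alignment to mm10, StringTie for quantification, DESeq2 to compare expression and exomePeak2 to call and compare peaks (versions are not given in the sources used here). The deposited expression table holds, per gene, the base mean (a normalized signal averaged over libraries), the log2 fold change with its SE, a Wald score, and the p-value and adjusted p-value. The deposited peak table holds read counts pooled by group, log2 changes and p-values. These deposited comparison columns are the only measurements used. No count of a single library was available to these steps, so no count model was fitted, total counts per library are unknown, and the DESeq2 values of the authors stand in for the planned count test. The number of per-sample columns left unused was 0.

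The sign of the expression changes was reversed to read MA over control, and that of the m6A changes was kept. Calls use the deposited adjusted p under 0.05, which was given for 13427 of the 16167 genes with a p. Intervals are 95% Wald intervals. Group levels, ratios and their intervals were calculated from the base mean, change and SE, and were chosen after values were seen. Transcript length and gene positions came from GENCODE release M21 (mm10), and promoters from RefSeq (GRCm38.p6). The members and the lists were chosen with earlier results of these data known. All members are named, and in each other list up to 3 called genes per direction and genes that a comparison needs; others named were chosen after their values were seen. Whether replicates are separate cultures is not given in the labels, so p-values measure only the spread between these libraries, which may be technical. Steps were checked on simulated data and ran in Python 3.11.15 with numpy 2.4.6, pandas 2.3.3, scipy 1.17.1 and matplotlib 3.10.9. The alternatives tried were other call thresholds, other adjustments, centring and peak matching by position.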

Additional observations from a re-analysis of the deposited data

How the results depend on the processing

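Of the 10 genes, 3 were called. Requiring an adjusted p under 0.05 and a change over 1.5-fold left 1, Mmp14. A p under 0.05 with a change over 1.2-fold left 2, Mmp14 and Timp1, since Mmp2 changed by less than 1.2-fold. Adjusting over all genes with a p, or over genes with a base mean of at least 50, gave 3. Centring on the median of all genes moved the median log2 change of the metalloproteinases from 0.01 to 0.03 and that of the TIMPs from -0.13 to -0.12. Matching m6A peaks by position, an alternative chosen after seeing the data, gave 0 members with a peak, as matching by name did.

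No paired analysis was possible because the tables carry no values of single libraries. For the same reason leaving out each replicate, other normalizations and other filters on counts were not run, and the alternatives for m6A changes were not run since no member had a peak. Depth per library is unknown, so the precision of Mmp9 (base mean 7.65) rests on its SE alone. The direction of all expression changes rests on the reversed sign.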

Other observations

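The promoter letters seen in the members differed with expression over all genes of the RefSeq table. In the 120 bases before the start, 4.62% of 7183 promoters of genes listed at 0 held the AP-1 letters, 11.5% the TATA letters and 16.1% the GC box letters, with a median GC content of 50%. Of 6686 promoters of genes with a base mean of at least 1000, 1.73% held the AP-1 letters, 2.33% the TATA letters and 52.9% the GC box letters, with a median GC content of 65.8%. Genes with several promoters count more than once, and these shares were not tested.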
